A study of Mus musculus with 9 samples.

Results

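The genes of glucose uptake, glycolysis and entry of pyruvate into the mitochondrial pyruvate dehydrogenase complex were followed in mouse skeletal muscle and in cultured muscle cells. The set holds 37 genes, chosen by symbol: 3 glucose transporters, 3 hexokinases, the enzymes from glucose phosphate isomerase to pyruvate kinase with their tissue isoforms, 4 bifunctional enzymes of fructose 2,6-bisphosphate, 5 subunits of the pyruvate dehydrogenase complex, its 4 kinases, 1 phosphatase and Gpd1. All 37 were matched to an Ensembl identifier and are listed in all 9 libraries, among 38293 genes in the GAS libraries and 46078 in those of cultured cells. GAS, the gastrocnemius muscle, came from female C57BL/6 mice (C57Bl6/J in the study's methods) aged 8 to 12 weeks (3 libraries). Myoblasts (MB, 2 libraries) were primary C57BL/6 muscle precursor cells kept in growth medium rich in serum, with PBS added as the control of the lactate treatment. A further 2 libraries were from MB that received 10 mM sodium-L-lactate in PBS, and 2 from myotubes (MT), which had been switched to differentiation medium low in serum for 3 days and also carried the PBS control, so that MT and MB differ in medium as well as in stage. The labels call the libraries biological replicates without naming animals or cultures.

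Glycolysis splits glucose into pyruvate and yields ATP without oxygen, and in fast muscle fibers it is the main source of energy for short bursts of contraction. Several of its steps are carried out by isoforms from separate genes, of which one is characteristic of adult muscle and the others of many tissues or of the brain. Pyruvate is either reduced to lactate or oxidized by pyruvate dehydrogenase, a complex that Pdk kinases switch off and Pdp phosphatases switch on.

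The promoters of 2 isoform pairs are shown, in each of which 1 gene passed the threshold between MB and MT and the other did not. They are Pgam2 and Pgam1, the muscle and the widely expressed phosphoglycerate mutase, and Eno3 and Eno2, the muscle and the neuronal enolase. Other families also held genes on both sides of the threshold, as Pfkm beside Pfkl and Pfkp, and their promoters are not shown. Each window holds 250 bases before and 50 after the RefSeq start site (GRCm38.p6), 5′ to 3′ on the strand of the gene. Capitals mark E-boxes (CANNTG, the letters that MyoD and related factors bind) and the single match to the MEF2 motif. The windows lie at chr11:5803747-5804046 (minus strand, Pgam2), chr19:41911621-41911920 (plus strand, Pgam1), chr11:70656926-70657225 (plus strand, Eno3) and chr6:124769624-124769923 (minus strand, Eno2).
Pgam2: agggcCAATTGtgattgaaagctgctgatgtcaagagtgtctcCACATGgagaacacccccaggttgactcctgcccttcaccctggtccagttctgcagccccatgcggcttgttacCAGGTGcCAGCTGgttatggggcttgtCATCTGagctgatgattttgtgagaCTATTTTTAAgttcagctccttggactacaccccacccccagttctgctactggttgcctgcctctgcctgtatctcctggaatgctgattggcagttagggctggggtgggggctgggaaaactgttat
Pgam1: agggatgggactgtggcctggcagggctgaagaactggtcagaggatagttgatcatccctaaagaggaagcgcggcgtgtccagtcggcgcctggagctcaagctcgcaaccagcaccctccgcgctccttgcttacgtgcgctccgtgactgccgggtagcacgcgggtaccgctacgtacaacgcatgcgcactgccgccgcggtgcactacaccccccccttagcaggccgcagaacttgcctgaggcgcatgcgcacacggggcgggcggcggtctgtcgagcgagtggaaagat
Eno3: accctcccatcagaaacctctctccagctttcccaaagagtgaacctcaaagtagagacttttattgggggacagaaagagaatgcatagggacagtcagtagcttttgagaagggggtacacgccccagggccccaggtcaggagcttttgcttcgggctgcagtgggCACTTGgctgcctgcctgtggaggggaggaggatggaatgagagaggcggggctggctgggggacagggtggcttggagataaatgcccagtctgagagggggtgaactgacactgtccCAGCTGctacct
Eno2: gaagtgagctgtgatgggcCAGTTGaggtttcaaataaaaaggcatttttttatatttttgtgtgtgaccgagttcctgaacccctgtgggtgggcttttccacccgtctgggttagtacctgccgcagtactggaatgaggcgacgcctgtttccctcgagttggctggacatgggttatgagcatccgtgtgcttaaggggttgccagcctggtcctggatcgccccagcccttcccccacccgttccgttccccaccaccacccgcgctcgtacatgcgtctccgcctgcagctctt
The Pgam2 window held 5 E-boxes and a MEF2 match at position -80 from the start site, whereas the Pgam1 window held neither. The Eno3 window held 2 E-boxes and the Eno2 window 1. A RefSeq window was found for 33 of the 37 genes, 52 windows in all, and Gpd1, Slc2a3, Slc2a4 and Pdp1 had none in the table used. An E-box was present in 67.3% of these windows and in 72.3% of all 32851 windows, and the MEF2 motif in 3.85% against 3.19%. At least 5 E-boxes were found in 2.1% of all windows. The letters ACGTG on either strand, the core bound by hypoxia-inducible factors, were present in 20 of the 52 windows (38.5%) against 19.6% of all windows, and CACGTG is a match to both this core and the E-box. By gene, the core was found in 16 of the 33, and in 2 of the 5 past the threshold between MB and MT that had a window. Pdk1, which passed that threshold, had no match to the core in any of its windows. These are matches of letters, and no binding was measured here.

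Between 5198247 and 10839516 reads per library were counted in cultured cells and between 19307793 and 19941574 in GAS, and 3 counts amounted to 0.223 to 0.533 CPM in the former. CPM values, counts scaled to the library size after TMM normalization, are used to compare 1 gene between libraries, and RPKM values, CPM per kilobase of exon, to compare genes. The summed level of 5 myoblast markers was 1205 to 2178 CPM in MB, 1613 to 3399 CPM in MT and 2372 to 2435 CPM in GAS. Of these markers Des was higher in MT (1370 and 2900 CPM, against 754 and 223 CPM in MB), and Pax7, Myf5, Myod1 and Vcam1 were lower in both MT libraries than in both MB libraries. The summed level of 6 markers of differentiated muscle was 98 to 210 CPM in MB and 10739 to 13895 CPM in MT, and that of 5 markers of adult fast muscle 28 to 61 CPM in MB, where Myh4 and Pvalb were at 0, and 92995 to 103702 CPM in GAS. The 5 fibroblast markers (Pdgfra, Col1a1, Dcn, Dpt and Lum) were also higher in MT, with a summed level of 2.17 to 2.57 CPM in MB, where Dpt and Lum were at 0, against 13539 CPM in MT replicate 1 and 1876 CPM in MT replicate 2. Most of the sum in MT was Col1a1, at 13116 and 1762 CPM in replicates 1 and 2. Dcn was at 408 and 110 CPM, Pdgfra at 5.66 and 2.54, Dpt at 3.05 and 1.02 and Lum at 6.03 and 0.763 CPM. MT replicate 1 further stood apart with 28599 detected genes, against 17965 in MT replicate 2 and 16174 and 17315 in MB. In bulk RNA of this kind, fewer cells of a type and less RNA per cell cannot be told apart.

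Differentiation into MT went with higher expression of 6 genes of the set and with lower expression of none. These were Pgam2, Slc2a4, Pdk2, Eno2, Pfkm and Pdk1, at an adjusted p under 0.05 and a log2FC over 0.5 (edgeR quasi-likelihood test, Benjamini-Hochberg adjustment over 12921 genes). They are 6 of the 32 genes of the set with enough counts to be tested (18.8%), beside 11.0% of all genes tested that were higher, and 0 of 32 beside 6.86% that were lower. The median log2FC was 0.36 over the 32 genes and 0.07 over all genes. CPM values without overlap between the groups were found for 14 of the 32 genes in the direction of higher levels in MT (43.8%, against 32.9% of all genes) and for 4 in the other direction (12.5%, against 29.2%). The part of the fibroblast markers in these differences was not tested. Of the 6 genes, Pgam2, Slc2a4 and Pdk2 were higher in MT replicate 2 than in MT replicate 1, and Pfkm, Eno2 and Pdk1 had the opposite order.

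**Figure D1:**
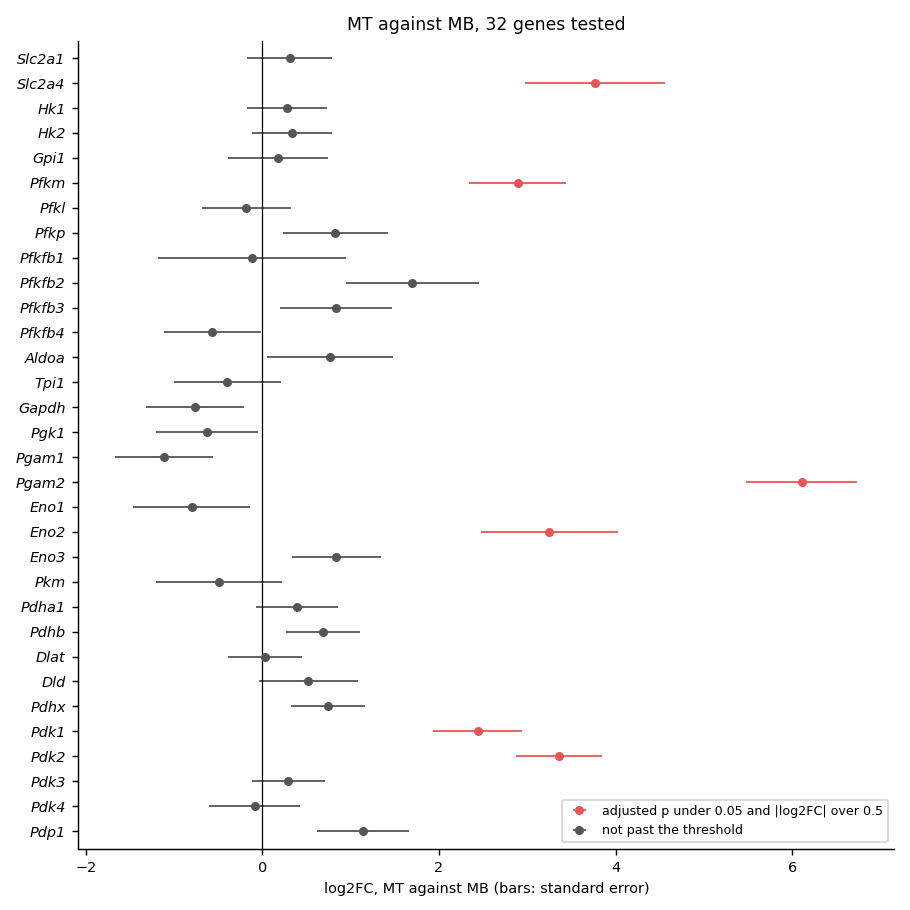
The log2FC of MT against MB (x axis) is plotted for the 32 genes tested, in the order of the pathway from glucose transporters to the pyruvate dehydrogenase phosphatase, with bars for the standard error and n = 2 libraries a group. The 6 genes past the threshold (red) lie between 2.44 and 6.11, and the remaining genes between -1.11 and 1.70.

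Among the glucose transporters, Slc2a4 (GLUT4, ENSMUSG00000018566, at chr11:69942539-69948188 in mm10, as all gene positions here), the insulin-responsive carrier of muscle and fat, was at 1.84 and 0.603 CPM in MB and at 11.2 and 23.8 CPM in MT. Both MT libraries were above both MB libraries, and the log2FC was 3.77 ± 0.79 (SE, adjusted p = 0.00932 by edgeR), although the MB values rest on 15 and 5 counts. Slc2a1 (GLUT1), the transporter of most dividing cells, was at 214 and 122 CPM in MB and at 231 and 189 CPM in MT. Its groups overlapped (log2FC 0.31 ± 0.48). The hexokinases, which trap glucose in the cell, showed no change past the threshold either. Hk1 was at 245 and 186 CPM in MB against 268 and 257 CPM in MT, and the muscle isoform Hk2 at 43.9 and 35.0 CPM against 42.4 and 58.2 CPM. Their log2FC values were 0.28 ± 0.45 and 0.33 ± 0.45.

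Phosphofructokinase sets the pace of glycolysis, and of its 3 genes the muscle isoform alone passed the threshold. Pfkm (ENSMUSG00000033065, chr15:98092589-98132451) was at 78.2 and 37.1 CPM in MB and at 451 and 419 CPM in MT, a log2FC of 2.89 ± 0.55 (adjusted p = 0.00585, edgeR). The MT libraries were close to each other and far above both MB libraries. Pfkl, the liver isoform, was at 428 and 278 CPM in MB and 369 and 254 CPM in MT (log2FC -0.18 ± 0.50), and Pfkp, the platelet isoform, at 138 and 61.3 against 250 and 103 CPM (0.83 ± 0.59). For both the groups overlapped. Whether the change of Pfkm differs from that of Pfkl or Pfkp was not tested in the fit across genes. The 4 Pfkfb genes, which make or remove the activator of phosphofructokinase, gave log2FC values from -0.57 (Pfkfb4) to 1.70 (Pfkfb2), none past the threshold. Pfkfb1 and Pfkfb3 differed more between the MT replicates than between MT and MB: Pfkfb1 was at 6.55 and 0.382 CPM and Pfkfb3 at 56.5 and 15.1 CPM in MT, the higher value in each case in MT replicate 1.

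In the lower part of glycolysis, Pgam2 had the largest change of the 32 genes tested. This gene (ENSMUSG00000020475, chr11:5801640-5803733) was at 4.29 and 2.17 CPM in MB and at 153 and 307 CPM in MT, that is, 35 and 18 counts against 2057 and 2417 counts. Its log2FC was 6.11 ± 0.63 (68.8-fold, adjusted p = 0.000201 by edgeR). Pgam1 had values in the opposite order, 791 and 356 CPM in MB and 292 and 248 CPM in MT, without overlap of the groups, but did not pass the threshold (log2FC -1.11 ± 0.55, adjusted p = 0.193). It was called lower once MB replicate 2 was left out, a fit in which the remaining MB library is assumed to vary like the MT libraries.

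The enolases differed in level by orders of magnitude. Eno2 (ENSMUSG00000004267, chr6:124760053-124769673) was at 2.82 and 0.723 CPM in MB and at 19.2 and 15.3 CPM in MT (log2FC 3.25 ± 0.78, adjusted p = 0.0167 by edgeR). The MT values did not overlap with those of MB, but the gene stayed at a low level, with a mean of 3.66 RPKM in MT against 445 RPKM of Eno3. Eno3, the isoform of adult muscle, was at 494 and 363 CPM in MB and 720 and 830 CPM in MT. Its log2FC of 0.84 ± 0.51 did not pass the threshold, although the groups did not overlap. Eno1, the widely expressed isoform, was at 3783 and 2266 CPM in MB and 2067 and 1414 CPM in MT (-0.80 ± 0.67).

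Aldoa, Tpi1, Gapdh, Pgk1 and Pkm, which have a single major gene in muscle, did not pass the threshold. Aldoa was at 3544 and 1895 CPM in MB and 4242 and 5233 CPM in MT (log2FC 0.77 ± 0.71). Tpi1, Gapdh, Pgk1 and Pkm had log2FC values of -0.40, -0.77, -0.63 and -0.49, with standard errors between 0.56 and 0.71. The counts of several of these genes are also uncertain for lack of unique sequence. Of the 50-base stretches of the coding transcript, 82.5% of Gapdh, 72.2% of Eno1, 68.0% of Pgk1, 41.5% of Pgam1, 34.4% of Pkm and 13.5% of Aldoa occur in other annotated genes as well. Such stretches were absent from Pgam2, Pfkm, Eno3, Slc2a4, Hk2, Pdk1 and Pdk2. Pkm counts do not separate its M1 and M2 splice forms.

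Among the genes around pyruvate dehydrogenase, 2 of the 4 kinases were higher in MT. Pdk2 (ENSMUSG00000038967, chr11:95026258-95041354) was at 9.19 and 7.47 CPM in MB and at 78.1 and 94.7 CPM in MT (log2FC 3.36 ± 0.49, adjusted p = 0.00142 by edgeR). Pdk1 (ENSMUSG00000006494, chr2:71873224-71903858), a known target of hypoxia-inducible factors, was at 58.3 and 54.2 CPM in MB and at 392 and 208 CPM in MT (2.44 ± 0.51, adjusted p = 0.00903). The groups of both genes lay well apart. Without MT replicate 1, which had the higher Pdk1 value, Pdk1 no longer passed the threshold (log2FC 1.82, adjusted p = 0.0952 by edgeR, the highest over its alternatives, where the lowest was 4.63e-05). Pdk4, which is induced by fasting and fatty acids, was at 52.6 and 144 CPM in MB and 64.7 and 118 CPM in MT (-0.09 ± 0.51), with the MT values inside the range of MB. Pdk3 was at 65.6 and 69.2 against 87.3 and 76.7 CPM (0.29 ± 0.42).

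The subunits of the complex itself did not pass the threshold. The log2FC was 0.39 for Pdha1 and 0.69 for Pdhb (the E1 component), 0.03 for Dlat (E2), 0.52 for Dld (E3) and 0.74 for Pdhx, which tethers E3. Pdhx and Pdhb were higher in both MT libraries than in both MB libraries, with Pdhx at 54.5 and 53.9 CPM in MB and 90.6 and 90.5 CPM in MT. Pdp1, the phosphatase that reactivates the complex, was at 15.4 and 31.9 CPM in MB and 61.6 and 39.3 CPM in MT (1.14 ± 0.52, adjusted p = 0.158 by edgeR). Dld and Pdp1 passed the threshold in the same fit without MB replicate 2, in which the spread comes from the MT libraries alone.

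The remaining 5 genes had too few counts to be tested. Slc2a3 (GLUT3) had 3 and 3 counts in MB against 185 and 5 in MT, Aldoc 0 and 1 against 65 and 2, and Gpd1 3 and 2 against 60 and 8. Pklr, the pyruvate kinase of liver and red cells, had 14 counts and Hk3 3 counts in MT replicate 1 and 0 in MT replicate 2 and in MB. For all 5 genes most of the counts in MT were therefore in MT replicate 1, and no fold change is given. Slc2a3 passed the threshold when no filter on low counts was applied and without MB replicate 2 or MT replicate 2, and Aldoc and Gpd1 without MT replicate 2, which leaves MT replicate 1 as the only MT library.

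To follow the isoforms independently of scaling between libraries, the share of the muscle isoform in the RPKM of its family was calculated within each library. Pgam2 made up 1.26% and 1.42% of phosphoglycerate mutase in MB, 55.3% and 74.5% in MT and 99.7% in each GAS library. Pfkm made up 23.9% and 19.4% of phosphofructokinase in MB, 64.6% and 73.3% in MT and 99.8% to 99.9% in GAS. In both families the widely expressed isoforms thus held most of the RPKM in MB, the muscle isoform held most in MT, and the others were nearly absent in GAS.

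Enolase and the transporters had the same order of groups. Eno3 accounted for 28.7% and 33.1% of the enolase RPKM in MB, 51.6% and 64.2% in MT and 99.6% in GAS. Slc2a4 accounted for 0.857% and 0.495% in MB, 4.52% and 11.2% in MT and 98.2% to 98.8% in GAS, so that Slc2a1 still held most of the transporter RPKM in MT. All MT values of these 4 families lay above all MB values, with an exact permutation p of 0.333 (two-sided), the smallest that 2 against 2 libraries can give.

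The share of Hk2 and the summed share of Pdk4 and Pdk2 showed no such step between MB and MT. Hk2 held 20.4% and 21.2% of the hexokinase RPKM in MB and 18.4% and 24.4% in MT, against 97.9% to 98.3% in GAS. Pdk4 and Pdk2 together held 35.1% and 56.1% in MB, 33.8% and 52.9% in MT and 97.3% to 98.2% in GAS. For both the groups of cultured cells overlapped, with exact permutation p-values of 1.0 and 0.667. The sum does not show the rise of Pdk2 itself, from 2.91 and 2.36 RPKM in MB to 24.7 and 30.0 RPKM in MT. Pdk4 was at 15.0 and 41.0 RPKM in MB and 18.4 and 33.7 RPKM in MT, and Pdk1, on the other side of the share, was also higher in MT. Aldoa and Pkm held between 99.9% and 100% of their families in every library. The shares depend on the gene lengths used: with the longest annotated transcript in place of all exons, the mean share in MB was 12.5% for Hk2 and 15.8% for Eno3, and that of Eno3 in MT 37.0%. The GAS libraries came from poly(A)-selected RNA and the cultured cells were processed by Smart-seq2, so GAS was set beside the cultured cells without a test.

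**Figure D2:**
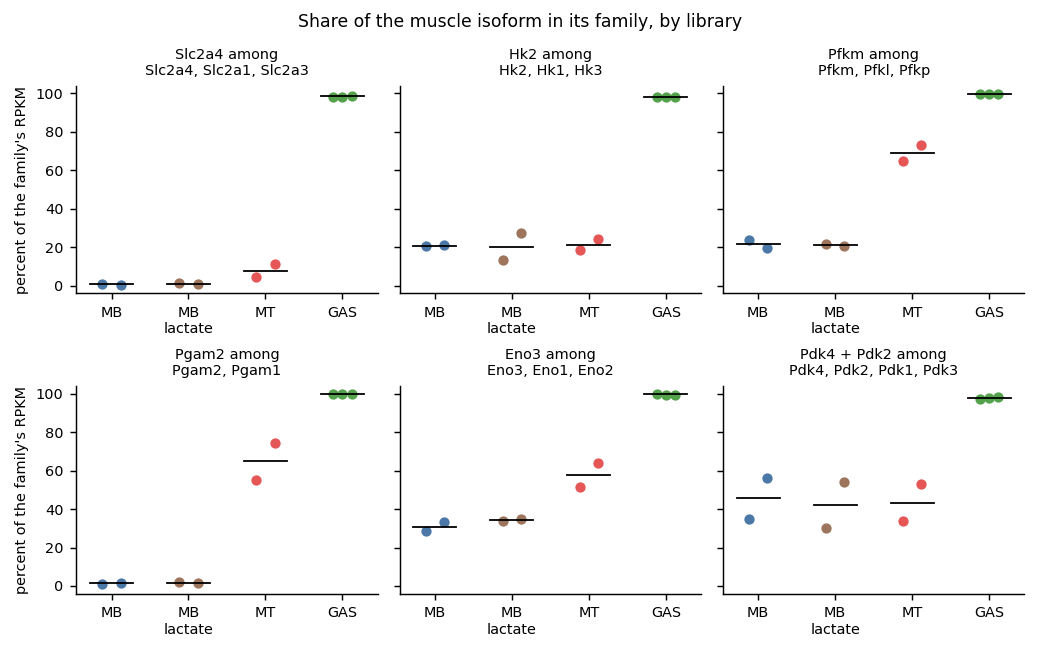
The percent of the family's RPKM held by the muscle isoform (y axis) is plotted for 6 isoform families in MB, lactate-treated MB, MT and GAS, with a point for each library and a line at the group mean. The shares of Pgam2, Pfkm, Eno3 and Slc2a4 are higher in both MT than in both MB libraries, those of Hk2 and of Pdk4 with Pdk2 overlap, and all 6 exceed 97% in every GAS library.

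The 19 enzymes from hexokinase to pyruvate kinase together took 1.79% and 1.24% of all counts in MB, 1.86% and 1.52% in MT and 3.80%, 3.65% and 3.89% in GAS. The mean was 1.51% ± 0.387 in MB and 1.69% ± 0.241 in MT (SD, n = 2, exact permutation p = 0.667), and the groups overlapped. The 95% Wilson interval of each share extended by less than 0.01 percentage points to either side and covers counting error only. The median log2FC of the 16 enzymes tested was 0.23.

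A difference as large as many between the groups was found between the replicates of MB. All 16 enzymes with counts in every cultured library were higher in MB replicate 1 than in MB replicate 2, by a median of 2.02-fold, whereas the median over 12421 genes was 1.02-fold. The lactate-treated MB had the same order, with 15 of the 16 higher in replicate 1 and a median of 1.78-fold, Hk2 being the exception. In MT, 10 of the 16 were higher in replicate 1, with a median of 1.07-fold. Over all genes the median was 0.967-fold in lactate-treated MB (12296 genes) and 0.904-fold in MT (12862 genes).

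Gapdh was among the genes with the largest ratios in both groups, at 288 and 108 CPM in control MB and 344 and 127 CPM in lactate-treated MB. Pdk4 had the opposite order, at 52.6 and 144 CPM in control MB and 36.5 and 125 CPM in lactate-treated MB, as did Pfkfb1, Pfkfb3, Pdha1, Dlat, Dld and Pdp1. MB replicate 1 and lactate-treated replicate 1 also held 9.20% and 13.8% of their counts in a single gene of ribosomal RNA, against 0.385% and 0.447% in the libraries with number 2. Other ribosomal RNA genes are not part of these shares. The part of this in the ratios was not tested.

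**Figure D3:**
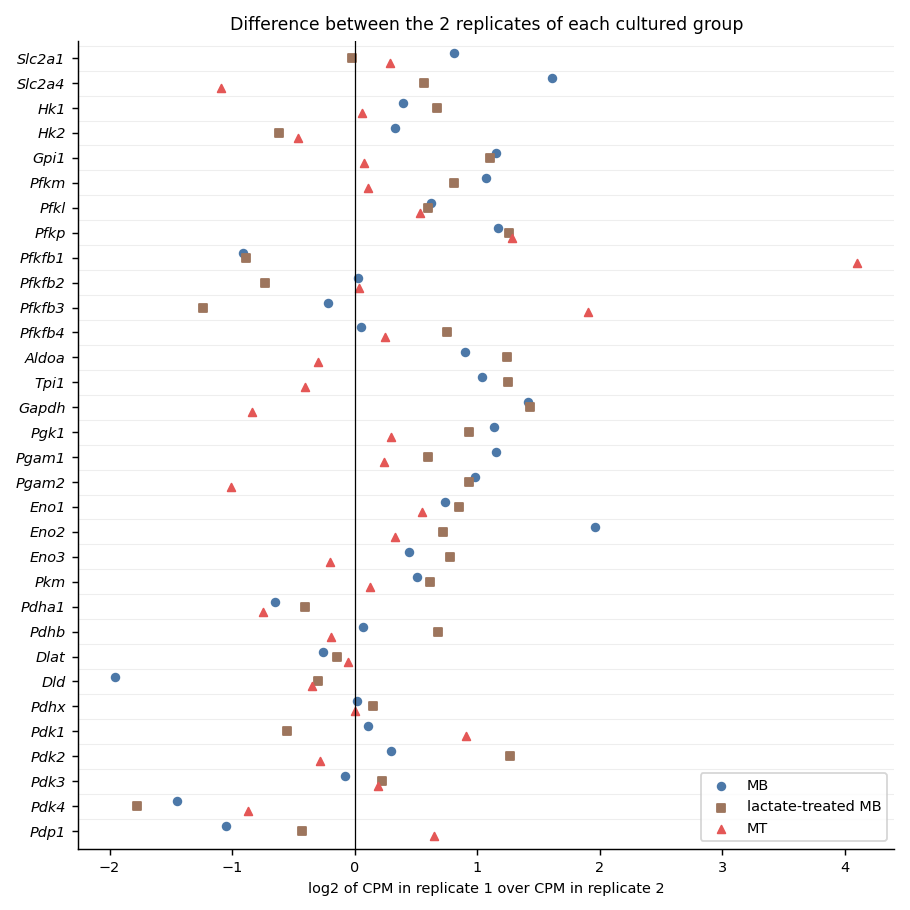
The log2 ratio of CPM in replicate 1 to replicate 2 (x axis) is plotted for the 32 genes with counts in every cultured library, separately for MB (circles), lactate-treated MB (squares) and MT (triangles). All 16 enzymes lie to the right of 0 in MB and, with the exception of Hk2, in lactate-treated MB, and Pdk4 lies to the left in all 3 groups.

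Whether 10 mM lactate alters these genes in MB was examined next, since lactate is the end product of the pathway. None of the 31 genes tested passed a nominal p under 0.01 with a log2FC over 0.5, and none of 11804 genes did (0%, edgeR quasi-likelihood test). At these thresholds the study, also with edgeR, reported a small group of genes higher or lower after lactate, so the counts differ. The form of its edgeR test is not stated, and the reason for the difference was not tested. At an unadjusted p under 0.05, 5 genes of all (0.0424%) and 0 of the set were found. The threshold itself would give a share of about 0.05 if no gene changed, so this fit is conservative. Its lack of calls therefore says little about whether lactate acts on these genes. With the replicate number as a block, 166 genes of all were under this p, and the lowest p in the set was 0.119 (edgeR quasi-likelihood test). The count past the nominal threshold by DESeq2, without a block, was 1 gene of all and 0 of the set. In the edgeR fit without a block, the log2FC values of the set ranged from -0.45 to 0.39, with a median of 0.04 against -0.003 over all genes. Of these values 19 were above and 12 below 0. Only Pdk1 had groups that did not overlap (1 of 31, 3.23%, against 11.1% of all genes). It was at 58.3 and 54.2 CPM in control and 35.0 and 51.2 CPM in lactate-treated MB, a log2FC of -0.41 ± 0.42 (SE).

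The lactate group lay within or across the range of the controls for the other genes. Slc2a1 was at 214 and 122 CPM in control MB and 125 and 126 CPM after lactate (log2FC -0.45 ± 0.43), and control replicate 1 alone lay above the lactate-treated libraries. Hk2 was at 43.9 and 35.0 against 35.0 and 53.5 CPM, and Pfkfb3 at 19.2 and 22.4 against 10.2 and 24 CPM. For Pkm, the values were 6076 and 4259 against 7056 and 4616 CPM, and for Pdha1, 162 and 254 against 175 and 232 CPM. The log2FC of these genes was 0.14 ± 0.44 (Hk2), -0.30 ± 0.57 (Pfkfb3), 0.14 ± 0.54 (Pkm) and -0.06 ± 0.43 (Pdha1). Gapdh and Pdk4, given above, had log2FC values of 0.20 ± 0.65 and -0.30 ± 0.74. Standard errors in the set ranged from 0.37 to 0.91 in this fit, which does not pair libraries with equal replicate numbers. With the replicate number as a block they ranged from 0.18 to 0.59, and the log2FC values of the set from -0.44 to 0.64. The isoform shares in lactate-treated MB were 1.97% and 1.57% for Pgam2, 21.8% and 20.4% for Pfkm and 33.7% and 35.0% for Eno3. Those of Pgam2 and Eno3 lay slightly above the controls (exact permutation p = 0.333, the smallest possible). The Pgam2 share rests on 31 and 16 counts of Pgam2, against 35 and 18 in the controls. The share of Slc2a4 was 1.26% and 0.845%, that of Hk2 13.2% and 27.2% and that of Pdk4 with Pdk2 30.1% and 54.2%. These shares and that of Pfkm overlapped with the controls.

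**Figure D4:**
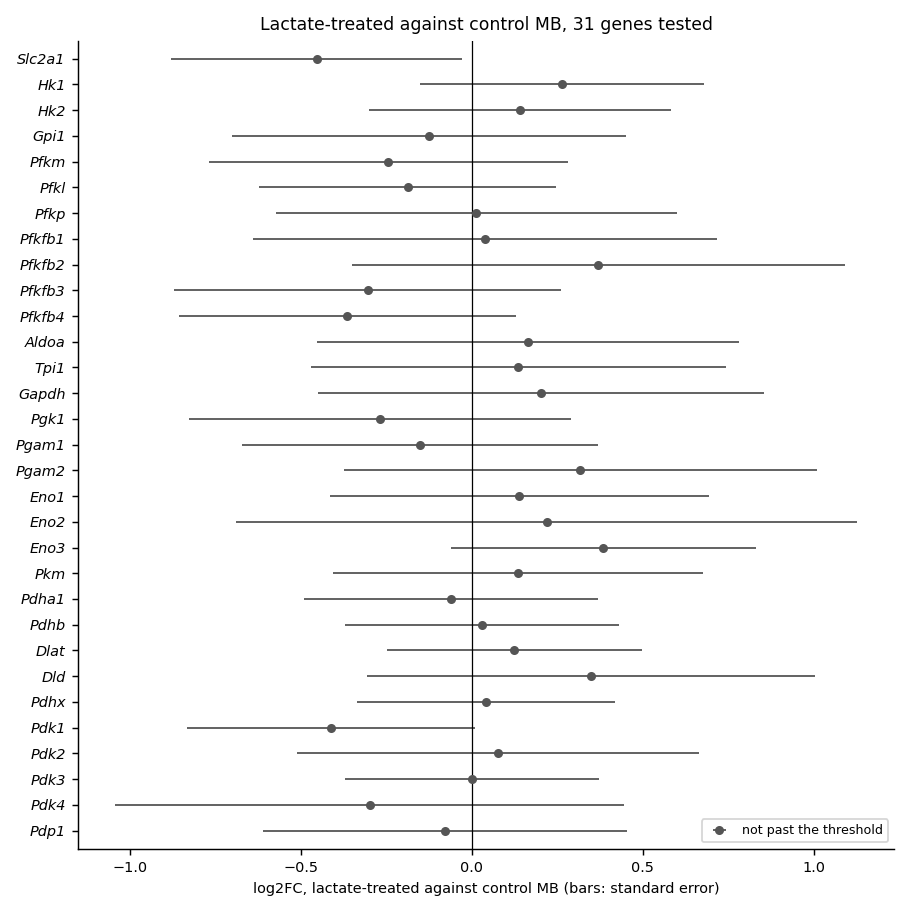
The log2FC of lactate-treated against control MB (x axis) is plotted for the 31 genes tested in the order of the pathway, with bars for the standard error and n = 2 libraries a group. All values lie between -0.45 and 0.39 and none passes the threshold.

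In GAS, 4 enzymes of the set held ranks from 17 to 41 by RPKM. Aldoa had a mean of 6064 ± 262 RPKM (SD, n = 3) and ranked 17 of 36429 genes by RPKM, followed by Eno3 with 3541 ± 241 (rank 22), Pgam2 with 1515 ± 59.1 (rank 34) and Pfkm with 1096 ± 103 (rank 41). The ranges of these 4 genes over the libraries did not overlap. Pkm (785 ± 40.3 RPKM) and Tpi1 (763 ± 38.8) came next with overlapping ranges, and Pgk1 (399 ± 28.9) was the last of 7 genes of the set in the top 100. A mean above 1 RPKM was found for 29 of the 37 genes, above 10 for 24 and above 100 for 15. In the order of levels, 14 of the 36 pairs of neighbours overlapped in range.

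The genes of regulation and of the pyruvate step were at intermediate levels. Pdk4 was at 218, 325 and 377 RPKM, the widest relative spread of the 15 genes above 100 RPKM, and overlapped in range with Pgk1 and with Gpd1 (267 ± 15.3 RPKM), which passes electrons from glycolytic NADH to the glycerol phosphate shuttle. In culture Gpd1 had at most 60 counts in any library. The transporter Slc2a4 (120 ± 6.02 RPKM) and Pdk2 (115 ± 3.79) overlapped with each other. Pdha1 was at 178 ± 7.80 RPKM, and its partner subunits Dld (62.5 ± 1.5), Pdhb (58.3 ± 4.38) and Dlat (31.6 ± 2.05) were lower. Hk2 was at 44.7 ± 2.44 RPKM, far below the enzymes that follow it. Among the Pfkfb genes, Pfkfb3 (153 ± 25.6 RPKM) was above Pfkfb1 (10.5 ± 1.23) and Pfkfb4 (10.3 ± 1.14), whose ranges overlapped, and above Pfkfb2 (3.24 ± 0.216).

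The widely expressed isoforms were at the low end in GAS. Eno1 was at 14.5 ± 0.822 RPKM, Pgam1 at 4.25 ± 0.433, Slc2a1 at 1.29 ± 0.351, Pfkl at 1.24 ± 0.0577, Hk1 at 0.716 ± 0.119, Pfkp at 0.408 ± 0.0307 and Pdk3 at 0.266 ± 0.0809. Eno2, which rose in MT, was at 0.152 ± 0.0567 RPKM in GAS, and Pklr had no count there, which allows up to 3 counts or 0.156 CPM in a library. Pdk1, also higher in MT, was at 8.97 ± 0.424 RPKM in GAS, beside 50.4 and 26.8 RPKM in MT and 7.50 and 6.97 RPKM in MB. Markers of other cells of the tissue were present in GAS, with summed levels of 379 to 476 CPM for fibroblasts, 134 to 157 CPM for endothelium and 697 to 3587 CPM for red cells. Their part in the low levels of the widely expressed isoforms was not tested. Gapdh (236 ± 17.9 RPKM) is uncertain in GAS in particular, since its annotated copies there took 8009, 7396 and 7574 counts, against at most 4 in any cultured library.

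**Figure D5:**
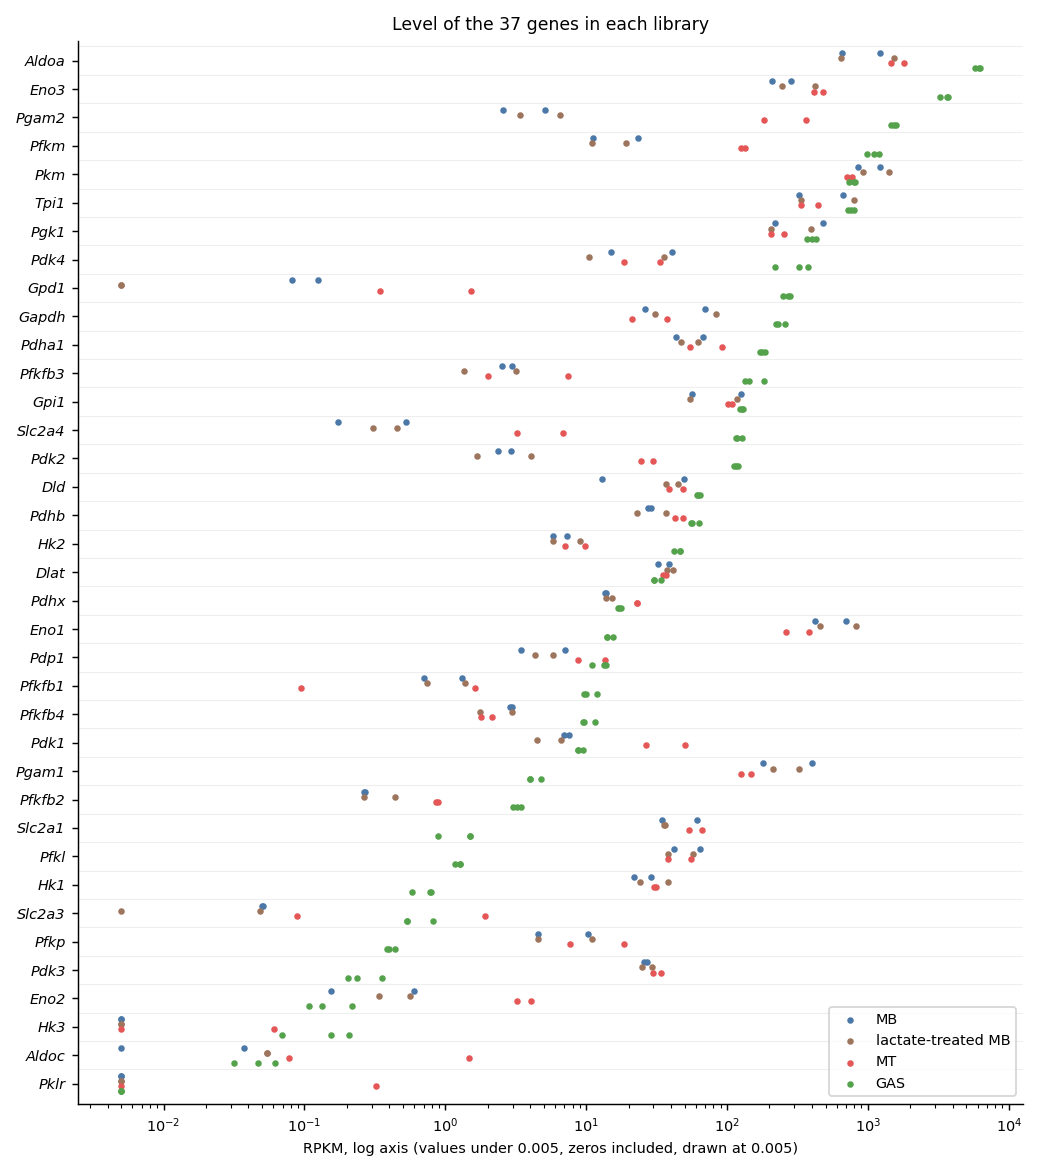
The RPKM of each of the 37 genes (x axis, log scale, zeros drawn at 0.005) is plotted for every library, with genes sorted by their mean in GAS and groups distinguished by colour. In GAS the points of Aldoa, Eno3, Pgam2 and Pfkm lie above those of all other genes of the set, and Slc2a1, Pfkl, Hk1, Pfkp and Pdk3 are lower in GAS than in any cultured library.

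Of 31 further genes of the pathway listed beside the set, 19 were tested between MT and MB, 4 were higher (beside 11.0% of all genes) and 1 was lower (beside 6.86%, edgeR quasi-likelihood test), and their median log2FC was 0.74 against 0.07 over all genes. Txnip, which curbs glucose uptake, was at 3.92 and 2.17 CPM in MB and 48.8 and 55.2 CPM in MT (log2FC 4.07 ± 0.58), and the transporter Slc2a6 at 1.10 and 1.08 against 69.4 and 109 CPM (6.31 ± 0.59). The others were the fructose transporter Slc2a5, with 2 counts in each MB library against 16 and 155 in MT, and the muscle fructose bisphosphatase Fbp2, with 0 counts in MB against 13 and 20 in MT. Gpd2, the mitochondrial arm of the glycerol phosphate shuttle, was at 152 and 159 CPM in MB and fell to 47.4 and 52.9 CPM in MT (-1.63 ± 0.42, adjusted p = 0.0223 by edgeR). Ldha and Ldhb, which interconvert pyruvate and lactate, gave -0.21 ± 0.64 and 0.74 ± 0.48. After lactate, 16 of these genes were tested, 0 passed the nominal threshold, and the log2FC ranged from -0.53 to 0.43.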

How the data were processed

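RNA sequencing of GAS (3 libraries), MB (2), MT (2) and lactate-treated MB (2) was analysed. The authors trimmed reads with Trim Galore 0.6.6, aligned them to mm10 with HISAT2 2.2.1 and counted them with featureCounts (Subread 2.0.1). Raw gene-level counts were deposited. The annotation release and the handling of strand and of multiply aligned reads are not given in the sources used here.

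GENCODE M21, on the same assembly, gave symbols, coordinates and exon lengths. It holds 36429 of the 38293 GAS identifiers and 45229 of the 46078 of cultured cells. Promoter windows were from RefSeq (GRCm38.p6). The genes, lists and tests were chosen with earlier results of these data known. All 37 genes may be named in MT and GAS, and 8 fixed genes plus any past the threshold after lactate. The calls of Pgam1, Dld, Pdp1, Slc2a3, Aldoc and Gpd1 under alternatives and the replicate ratios were described after their values were seen.

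The contrasts of MT to MB and of lactate-treated to control cells were fitted with edgeR 4.0.16 in R 4.3.3 (low-count filter, TMM, quasi-likelihood test, Benjamini-Hochberg adjustment over all genes tested), each fit holding the 4 libraries compared. Standard errors of these fits were derived from the test, as the absolute log2FC divided by the square root of the F statistic. CPM were TMM-normalized separately for GAS and cultured cells. Shares were compared with two-sided exact permutation tests. Both fits were tested on simulated data. Alternatives were DESeq2 1.42.0, the likelihood ratio test, RLE factors, other filters and thresholds, the replicate block, removal of ribosomal RNA genes, all 6 cultured libraries in one fit, other lengths, addition of copies and leaving out each library, and, chosen after seeing the data, crossed replicate numbers. Tables and plots were made in Python 3.11.15 (pandas 2.3.3, scipy 1.17.1, numpy 2.4.6, matplotlib 3.10.9). Other assays of the study were not analysed here.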

Additional observations from a re-analysis of the deposited data

How the results depend on the processing

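The 6 genes higher in MT passed the threshold under every alternative in which they were tested, with the exception of Pdk1 without MT replicate 1. Slc2a4 and Eno2 were not tested with at least 10 counts required in every library, which left 4 genes called. Without MB replicate 2 or MT replicate 2, 9 genes were higher, and 0 to 1 were lower (Pgam1) when 1 library was left out, where the lone library of a group is assumed to vary like the other group. Over all genes, the likelihood ratio test gave 1343 lower, the filter on 10 counts 766 higher, and leaving out 1 library between 962 and 4118 higher (4118 without MT replicate 2) and between 270 and 1570 lower (270 without MT replicate 1, 1570 without MB replicate 2), where the number of genes tested also went from 12921 to between 13102 and 18831. After lactate, the genes past the nominal threshold numbered 0 in the fit described, 1 with DESeq2, 1 without a filter and 5 at a nominal p under 0.05, and 1 to 177 with 1 library left out (19 and 177 without MB replicate 1 and 2). At an adjusted p under 0.05, 0 to 2 genes were found with 1 library left out (2 without MB replicate 1). No gene of the set was among them under any of these. The causes were not tested.

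The labels do not say that equal replicate numbers share a source. Deviations of same-numbered libraries correlated with r = -0.13 between MT and MB and r = 0.70 between lactate-treated and control MB, over genes. With the replicate number as a block, 1447 genes were higher and 824 lower in MT, with crossed numbers 1192 and 867, and the same 6 genes of the set were called in both. After lactate the block gave 13 genes past the nominal threshold, 0 at an adjusted p under 0.05 and 0 of the set. The log2FC of Pdk4 in MT, -0.09, turned to 0.0082 with the block, 0.0058 with crossed numbers and 0.0077 with at least 10 counts.

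Signs that depended on 1 library were those of genes not past the threshold. With each library left out in turn, the log2FC in MT ranged from -0.18 to 0.75 for Slc2a1, -0.054 to 0.46 for Hk1, -0.0043 to 0.49 for Hk2, -0.41 to 0.86 for Gpi1, -0.61 to 0.13 for Pfkl, -0.052 to 1.49 for Pfkp, -3.40 to 0.61 for Pfkfb1, -0.52 to 1.35 for Pfkfb3, -0.95 to 0.21 for Tpi1, -1.41 to 0.12 for Gapdh, -1.22 to 0.029 for Pgk1, -0.11 to 0.67 for Pdha1, -0.14 to 0.0027 for Dlat, -0.23 to 1.60 for Dld and -0.70 to 0.63 for Pdk4. After lactate it ranged from -0.80 to 0.084 for Slc2a1, -0.24 to 0.46 for Hk2, -1.10 to 0.22 for Pfkfb3, -0.62 to 1.18 for Gapdh, -0.15 to 0.50 for Pkm, -0.32 to 0.31 for Pdha1 and -1.50 to 0.62 for Pdk4.

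With the length of the longest transcript, mean shares became 12.5%, 12.9% and 96.8% for Hk2 in MB, MT and GAS, 15.4%, 15.0%, 59.8% and 99.8% for Pfkm in MB, lactate-treated MB, MT and GAS, 1.20% and 99.7% for Pgam2 in MB and GAS, 15.8%, 18.0%, 37.0% and 99.0% for Eno3 in MB, lactate-treated MB, MT and GAS, 97.1% for Pdk4 with Pdk2 in GAS and 99.9995% for Aldoa in GAS. With copies added to their parent gene, Eno3 held 26.6% in MB and 29.9% in lactate-treated MB, and Pgam2 99.6% in GAS.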
